A study of Chlamydomonas reinhardtii with 34 samples.

Results

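Of 17301 gene models of the green alga Chlamydomonas reinhardtii, 121 rose early after nitrogen removal and were still raised 48 h later, in both strains studied. They were chosen from the deposited values themselves. With the level written as log2(RPKM + 1), a gene model had to stand at least 2 above the culture's pre-wash library (a 4-fold rise on that scale) at 2, 4, 24 and 48 h without nitrogen, in sta6 and in CC-4349 alike. RPKM is a read count scaled by the length of the gene model and by the number of mapped reads. The strains were sta6 (CC-4348), a starchless mutant, and CC-4349, the strain it is set against. Cultures of both grew in HSM, a minimal medium with ammonium, under light of 25 µmol photons per square metre and second. They were then washed in HSM without ammonium chloride and resuspended in the same medium. After 48 h without nitrogen the cultures were given acetate, called the boost, and followed for another 48 h. Every group other than pre-wash was thus also washed, and every boosted library had been starved first. Each strain had 17 libraries, 1 for each time: the 8 boosted times of 0, 0.5, 2, 4, 8, 12, 24 and 48 h, the same 8 times without nitrogen, and pre-wash. No culture without acetate at the boosted times was used here, so the boost and the elapsed time cannot be told apart.

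Nitrogen starvation is among the most studied stresses of this alga. Cells that lose their nitrogen source stop dividing, take up and recycle other nitrogen compounds, break down part of their photosynthetic machinery and ribosomes, and store carbon as starch and oil; they can also turn into gametes. The sta6 mutant lacks part of ADP-glucose pyrophosphorylase, which supplies the sugar donor for starch, so that acetate fed to starved cells cannot be stored as starch. The reference table used here pairs the gene models with locus tags alone and holds no product names, so the genes below are given by identifier, and no functional grouping of them could be made.

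Library totals, recovered from the steps between low values, ran from 5.72 M to 53.9 M reads, and their median was 18.1 M reads. The shallowest library was sta6 at 2 h and the deepest was sta6 at 12 h after the boost. Levels at Cre03.g188250.t1.1, the STA6 locus, had a median of 2.87 RPKM in sta6 (0.957 to 7.45, n = 17), against 148 RPKM in CC-4349 (100.2 to 304, n = 17), so the strains did not overlap at this locus. The 4 libraries at 0 h after the wash and at 0.5 h after the boost had fewer gene models at 1 RPKM or more (12858 to 13093) than the other 30 (13488 to 14300). The 10 libraries that chose the genes took no part in the main tests and are described without one. The main tests used the other 24, in which successive times of a phase stand in for replicates. Their p-values thus measure the spread between time points and not between cultures. Alternative settings with pre-wash or 48 h in a baseline, or with all 17 time points, put libraries that chose the genes back in. The groups at 0 h and 0.5 h after the wash and at 0 h after the boost have 1 library per strain and supply no spread of their own, so tests that use them assume that they vary like the 8 and 12 h and the other boosted libraries.

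Most of the genes were low in growing cells. Before the wash the median was 0.911 RPKM in sta6 (0 to 20.3) and 0.78 RPKM in CC-4349 (0 to 36.6), and 58 of the 121 were under 1 RPKM in both. For 104 of them the values could be turned back into whole reads. Of these, 30 in sta6 and 8 in CC-4349 had 3 reads or fewer before the wash, so the size of their rise rests on very few reads at the start. At 2 h the same 104 genes had a median of 433 reads in sta6 (54 to 8236) and 1395 reads in CC-4349 (191 to 26229). These are bulk RNA samples, in which a change in the share of cells that express a gene and a change in RNA per cell cannot be told apart.

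The median of the 121 reached 9.35 RPKM at 0.5 h, 31.7 RPKM at 2 h and 45.1 RPKM at 12 h in sta6. In CC-4349 it reached 7.60 RPKM at 0.5 h, 38.1 RPKM at 2 h and 46.1 RPKM at 12 h. From 0 to 12 h the median of the 14359 genes tested stayed between 6.23 and 8.77 RPKM in sta6 and between 6.30 and 8.44 RPKM in CC-4349. At 12 h the 121 genes held 1.55% of the summed RPKM in sta6 and 1.71% in CC-4349, against 0.0464% in sta6 and 0.0504% in CC-4349 before the wash.

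**Figure D1:**
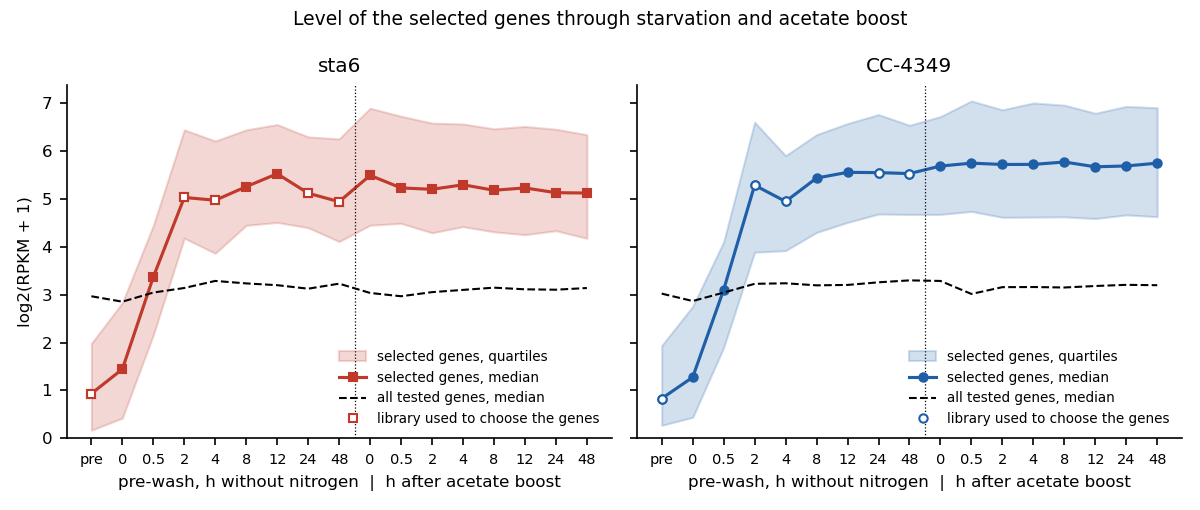
Level of the 121 genes in each library, in log2(RPKM + 1), for sta6 (left) and CC-4349 (right); lines with symbols are medians, bands run between the quartiles, dashed lines are the median of all 14359 genes tested, and open symbols are libraries that chose the genes. The median climbs from 0 to 2 h and stays up through the boost, while the dashed line hardly moves.

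The choice rests on a threshold, with gene models on either side of it. Just inside were Cre17.g701000.t1.1, Cre03.g186050.t1.2 and Cre06.g287450.t1.2, with a smallest rise of 2.05, 2.05 and 2.07 on the log2 scale. Just outside were Cre17.g729350.t1.2, Cre12.g557750.t1.2 and Cre12.g507050.t1.1, at 2.00, 1.99 and 1.95. The strongest were Cre13.g569850.t1.1 at 7.21, Cre02.g140300.t1.2 at 6.76 and Cre10.g442800.t1.2 at 6.35. Requiring a smallest rise of 3 left 57 gene models, and requiring 5 left 7. In sta6 alone 161 gene models met the rule, and in CC-4349 alone 189.

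Whether the rise had begun within 0.5 h was asked in libraries that did not choose the genes. At 0.5 h without nitrogen, against 0 h, 82 of the 121 genes were higher and 0 lower (limma adjusted p below 0.05 and at least a 2-fold change), where 8.29% of all genes tested were higher and 5.31% lower. Their median log2 change was 1.42, with quartiles of 0.72 and 2.03, against a median of 0.20 over all genes tested. All 121 passed the filter of a mean of 1 RPKM over the 24 libraries, which genes this high after the wash pass through their starved and boosted libraries. With a pseudocount of 5 in place of 1, 40 of the 121 were higher, a count given here without its share over all genes. With median-of-ratios scaling 75 of the 121 were higher and 0 lower, while the calls over all genes turned from 1190 higher and 762 lower to 725 higher and 1186 lower. Quantile normalization gave 69 of the 121 higher, against 566 higher and 844 lower over all genes. Both arms of this comparison are 1 library per strain, so its spread comes entirely from other phases. In 104 of the 121 the 0.5 h library lay above the 0 h library in both strains. That was not counted over all genes tested. By the log2 change averaged over the strains, 93.4% of the 121 were above 0, against 64.2% of all genes tested.

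Cre13.g569850.t1.1 had the largest early change and was also the most abundant of the 121 genes at 8 and 12 h. It had 658 RPKM in sta6 and 625 in CC-4349 at 0.5 h, against 25.4 RPKM in sta6 and 21.1 in CC-4349 at 0 h. Its log2 change was 4.73 ± 0.16 (SE), with an adjusted p of 3.69e-11 by limma. Both strains already stood above their pre-wash values of 1.04 RPKM in sta6 and 4.75 in CC-4349 at 0 h, then reached 1492 RPKM in sta6 and 1247 in CC-4349 at 2 h.

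The other 39 genes did not meet the call at 0.5 h, and for 20 of them the log2 change was under 0.5. Of those 39, 20 then stepped up at least 4-fold between 0.5 and 2 h in both strains, on the log2(RPKM + 1) scale. The 2 h libraries chose the genes, so a step up by 2 h in genes not yet raised was largely fixed by the choice. The step was not counted over all genes tested and is a description. Cre03.g159250.t1.2 was listed at 0 in sta6 before the wash, at 0 h and at 0.5 h. In CC-4349 it stood at 0.973, 1.07 and 0.432 RPKM in the same libraries. It was then at 61.5 RPKM in sta6 and 127 in CC-4349 at 2 h, so its onset fell between 0.5 and 2 h in both strains. Cre02.g140300.t1.2 was called higher at 0.5 h but was still low there, at 2.54 RPKM in sta6 and 1.5 in CC-4349. At 2 h it stood at 242 RPKM in sta6 and 218 in CC-4349, and it was lowest afterwards at 4 h in CC-4349, at 136 RPKM.

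Cre05.g231450.t1.1 had the lowest change at 0.5 h, a log2 change of -0.73 ± 0.28 (SE) that missed the limma threshold (adjusted p = 0.0501). Its strains did not move alike, with 3.75 RPKM in sta6 and 1.77 in CC-4349 at 0.5 h, against 3.12 RPKM in sta6 and 7.84 in CC-4349 at 0 h. It climbed slowly, through 17.1 RPKM in sta6 and 19 in CC-4349 at 2 h, to 170.4 RPKM in sta6 and 186 in CC-4349 at 12 h.

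A small number rose before nitrogen had been gone for any length of time. At 0 h after the wash, 4 of the 121 stood at least 4-fold above pre-wash in both strains on the log2(RPKM + 1) scale, against 26 of the 14359 genes tested, or 0.181%. Singled out after their values were seen, they were Cre01.g008300.t1.2, Cre01.g008350.t1.2, Cre01.g058750.t1.1 and Cre03.g182700.t1.2. Pre-wash is the baseline that chose the genes and each strain gave 1 library, so there is no test. Cre01.g008300.t1.2 had 29.9 RPKM in sta6 and 40.1 in CC-4349 at 0 h, against 0.645 RPKM in sta6 and 0.754 in CC-4349 before the wash. Cre01.g058750.t1.1 had 53.1 RPKM in sta6 and 22.5 in CC-4349 at 0 h, and was highest at 0.5 h, at 242 RPKM in sta6 and 181 in CC-4349. By 4 h it had come down to 50.9 RPKM in sta6 and 52.7 in CC-4349, still far above the 3.65 RPKM in sta6 and 3.35 in CC-4349 before the wash. Washing, handling and the removal of nitrogen cannot be told apart in the 0 h libraries.

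The 8 and 12 h libraries lie between the times that chose the genes but were not themselves used. The rule asked for a rise on both sides of them in each strain, so a rise there was largely fixed by the choice. Asking for a rise at 8 and 12 h as well left 120 of the 121. The counts that follow are thus no separate check of the rise. Against 0 h, 120 of the 121 genes were higher and 0 lower at 8 and 12 h by limma, where 17.8% of all genes tested were higher and 8.04% lower. The median log2 change was 3.43 for the 121 and 0.34 for all genes tested. In all 121 the 8 and 12 h libraries both lay above 0 h in both strains. That was not counted over all genes tested, of which 68.2% had a log2 change above 0. The gene that missed the call was Cre01.g008350.t1.2. It had 43.5 and 45.0 RPKM in sta6 and 57.8 and 59.96 in CC-4349 at 8 and 12 h, against 34.2 RPKM in sta6 and 31.7 in CC-4349 at 0 h, where it was already far above its 2.74 RPKM in sta6 and 3.2 in CC-4349 before the wash. Its log2 change of 0.62 ± 0.11 (SE) had an adjusted p of 0.000164 by limma and fell short of 2-fold.

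**Figure D2:**
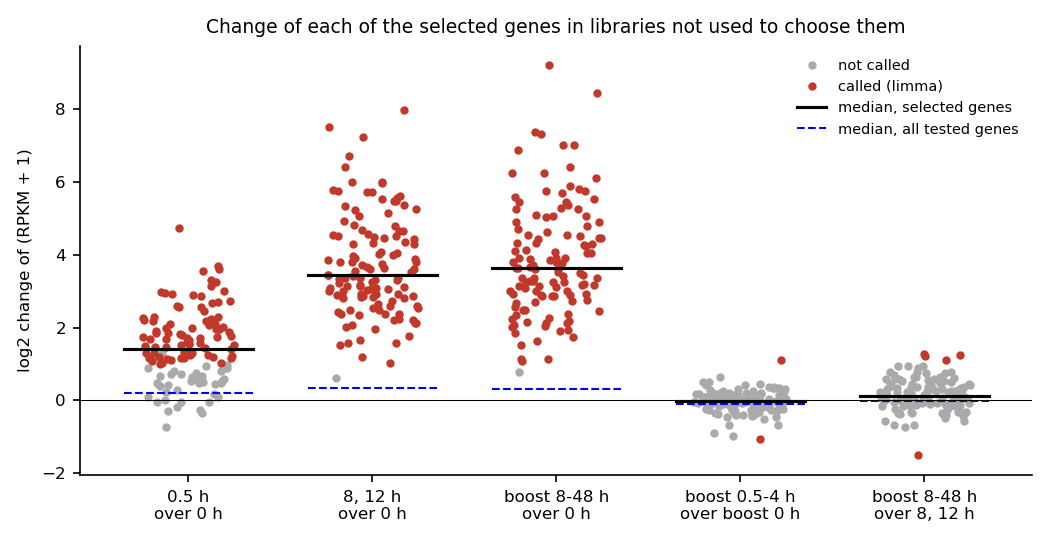
Change of each of the 121 genes, as the log2 change of (RPKM + 1) averaged over the strains, in 5 comparisons of libraries that did not choose them; red points were called by limma, black bars are medians of the 121 and dashed blue bars medians of all 14359 genes tested. Starved and boosted libraries stand far above 0 h, which the choice favoured, with 120 genes called in both. Early after the boost 2 genes were called, and 5 later.

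The medians of the 121 and of all genes both moved with the scaling of the libraries, and the split of the background turned. With median-of-ratios scaling the median of all genes tested at 8 and 12 h moved to 0.01, and the calls over all genes turned from 2555 higher and 1154 lower to 1484 higher and 1963 lower. Of the 121 genes, 118 were still higher and 0 lower, with a median of 3.2. With quantile normalization the medians were 3.10 for the 121, of which 120 were higher, and 0.01 for all genes tested, with 1383 higher and 1519 lower. With pre-wash and 0 h together as the baseline, all 121 were higher. Pre-wash is the baseline that chose the genes, so that count follows largely from the choice and is no separate check.

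By level at 8 and 12 h, averaged over the strains, the 121 ranged from 3.76 to 1147 RPKM with a median of 44.8 RPKM, and 27 were at 100 RPKM or more. The median of all genes tested was 8.36 RPKM. After Cre13.g569850.t1.1 the most abundant were Cre10.g442800.t1.2, Cre03.g159250.t1.2, Cre03.g159254.t1.1, Cre12.g551300.t1.1 and Cre06.g260700.t1.1. Apart from Cre13.g569850.t1.1 and Cre03.g159254.t1.1, each of them was also among the 6 genes with the largest change, together with Cre02.g140300.t1.2 and Cre01.g009400.t1.1.

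Cre10.g442800.t1.2 had 169 and 289 RPKM in sta6 and 585 and 776 in CC-4349 at 8 and 12 h, against 0.34 RPKM in sta6 and 2.31 in CC-4349 at 0 h. Its log2 change was 7.52 ± 0.19 (SE; limma adjusted p = 3.27e-14), and sta6 was the lower strain in every library. Cre03.g159250.t1.2 had 349 and 526 RPKM in sta6 and 259 and 362 in CC-4349 at 8 and 12 h, the largest change of the 121 at 7.98 ± 0.19 (SE; limma adjusted p = 3.22e-14). Its neighbour in the table, Cre03.g159254.t1.1, ran nearly level with it, with 321 and 488 RPKM in sta6 and 238 and 339 in CC-4349. From 2 h without nitrogen onward their ratio stayed between 0.735 and 1.1, while before that Cre03.g159254.t1.1 was the higher, at 4.82 to 6.43 RPKM. Reads shared between such models cannot be told apart in a table of this kind. Cre06.g260700.t1.1 had 244 and 298 RPKM in sta6 and 199.8 and 254 in CC-4349 at 8 and 12 h, against 4.08 RPKM in sta6 and 0.643 in CC-4349 at 0 h.

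**Figure D3:**
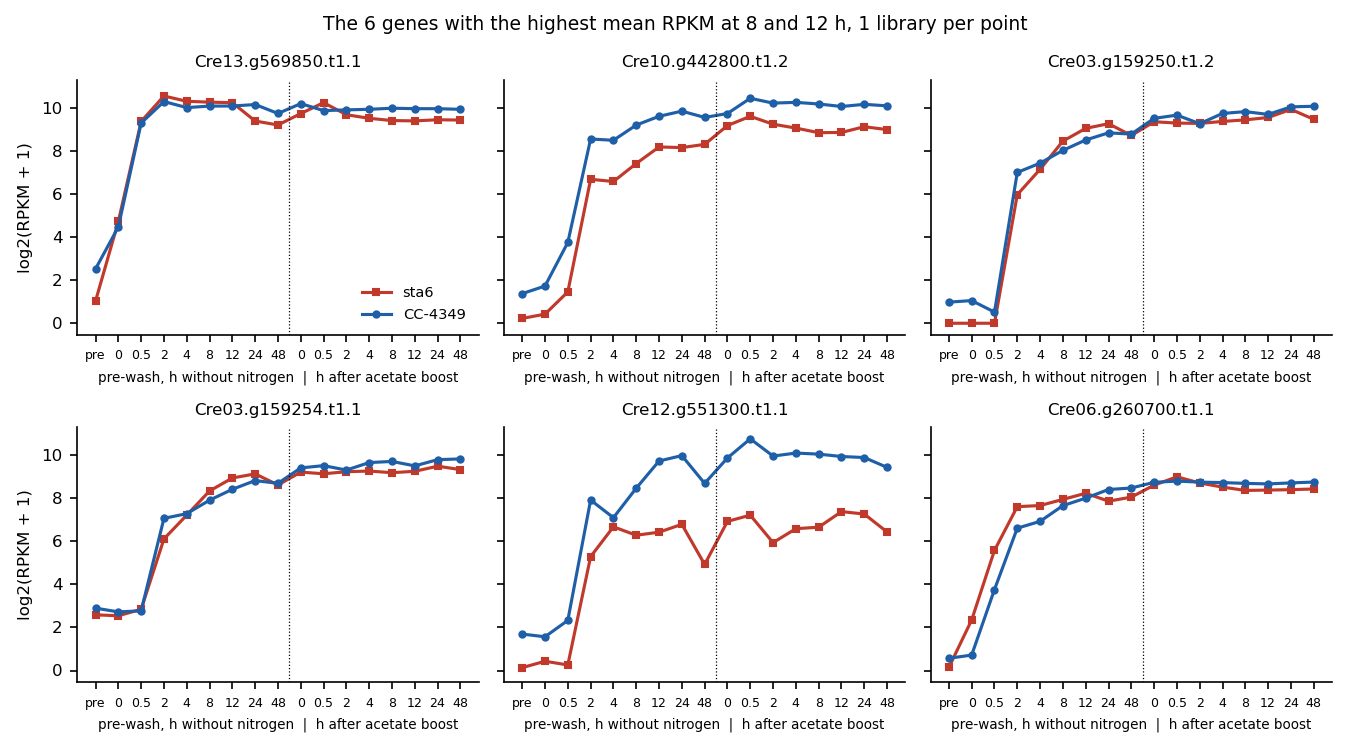
Level of the 6 most abundant of the 121 genes, in log2(RPKM + 1), over the 17 times, 1 library per point, with sta6 in red squares and CC-4349 in blue circles; the dotted line marks the acetate boost. Cre13.g569850.t1.1 is near its plateau at 0.5 h, and Cre12.g551300.t1.1 is lower in sta6 throughout. After 0.5 h, Cre03.g159250.t1.2 climbs from 1.07 RPKM or less and Cre03.g159254.t1.1 from 4.82 to 6.43 RPKM.

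The time of the highest value without nitrogen is described over all 8 times, with no test between the strains. The values at 2, 4, 24 and 48 h had chosen the genes, so highest values at these times were favoured by the choice. No time had a replicate library, so a shift between the strains cannot be told from the spread of libraries. The same split was not made for all genes tested. In sta6 the highest value came at 2 h for 30 of the 121 genes, at 12 h for 38, at 24 h for 26 and at 48 h for 14. In CC-4349 it came at 2 h for 32 genes, at 12 h for 7, at 24 h for 50 and at 48 h for 30. For 24 genes the highest value came by 4 h in both strains, for 30 at 24 or 48 h in both, and 38 peaked at 8 or 12 h in sta6 but at 24 or 48 h in CC-4349. Cre01.g009350.t1.1 was one of the early ones, at 640.4 RPKM in sta6 and 644 in CC-4349 at 2 h, and had come down to 136 RPKM in sta6 and 151 in CC-4349 by 8 h. It remained far above its 0 h values of 2.35 RPKM in sta6 and 2.62 in CC-4349.

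The next comparison asks how the raised genes stood after the acetate boost. In the first 4 h after the boost, against 0 h after the boost, 1 of the 121 was higher and 1 lower by limma, where 0.272% of all genes tested were higher and 1.65% lower. The median log2 change was -0.01 for the 121 and -0.09 for all genes tested. Within 2-fold lay 119 of the 121, or 98.3%, against 97.5% of all genes tested. At an adjusted p above the threshold a gene is not shown to be unchanged.

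The gene that was higher was Cre01.g058800.t1.1, which had been falling late in starvation. At 24 and 48 h without nitrogen it had 19.4 and 6.78 RPKM in sta6 and 31.2 and 15.8 in CC-4349. At 0 h after the boost it had 28.5 RPKM in sta6 and 20.4 in CC-4349, already above 48 h without nitrogen in both strains. At 0.5, 2 and 4 h after the boost it had 57.3, 35.8 and 38.7 RPKM in sta6 and 80.2, 58.2 and 64.3 in CC-4349. All 6 boosted libraries lay above their own strain's 0 h, with a log2 change of 1.12 ± 0.21 (SE; limma adjusted p = 0.00443). In sta6 alone, which is also what remains when the 0 h boost library of CC-4349 is left out, its change of 0.58 was not called, nor was it called from 2 and 4 h alone. Before the wash it was listed at 0 in both strains, and without nitrogen it was highest at 2 h, at 55.6 RPKM in sta6 and 95 in CC-4349.

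The gene that was lower was Cre04.g217350.t1.1. It had 5.35, 2.59 and 4.33 RPKM in sta6 and 16.0, 16.9 and 15 in CC-4349 at 0.5, 2 and 4 h after the boost, against 12.0 RPKM in sta6 and 27.0 in CC-4349 at 0 h. Its log2 change was -1.06 ± 0.19 (SE; limma adjusted p = 0.00363), and all 6 libraries lay below their 0 h. It lost the call with a pseudocount of 5, with 2 other scalings, without the sta6 library at 2 h after the boost, and in CC-4349 alone, which is also what remains without the 0 h boost library of sta6.

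In the later boosted libraries, 8 to 48 h after acetate, 4 of the 121 genes were higher and 1 was lower than at 8 and 12 h without nitrogen, where 3.75% of all genes tested were higher and 6.67% lower by limma. The median log2 change was 0.11 for the 121 and -0.02 for all genes tested. Within 2-fold lay 116 of the 121, or 95.9%, against 89.5% of all genes tested. Fitted in sta6 alone, the median of the 121 was -0.15, with 4 genes higher and 4 lower. Over the 14359 genes tested it was -0.05 there, with 808 higher and 1157 lower. In CC-4349 alone the median of the 121 was 0.38, with 7 higher and 0 lower. Over all genes tested it was 0.01 there, with 478 higher and 877 lower. The difference between the strains in this change was not tested.

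The 4 higher genes were Cre05.g231450.t1.1, Cre03.g159250.t1.2, Cre12.g551350.t1.1 and Cre03.g159254.t1.1. Cre05.g231450.t1.1 had 268, 252, 213 and 217 RPKM in sta6 and 422, 412, 469 and 464 in CC-4349 at 8, 12, 24 and 48 h after the boost, against 95.3 and 170.4 RPKM in sta6 and 107 and 186 in CC-4349 at 8 and 12 h without nitrogen. In neither strain did these boosted libraries overlap those at 8 and 12 h, but at 24 h without nitrogen sta6 had reached 259.7 RPKM, inside its boosted range. Its log2 change was 1.26 ± 0.17 (SE; limma adjusted p = 2.43e-05). The other 3 changed by 1.24, 1.23 and 1.11 on the log2 scale. In sta6 alone the call held for Cre12.g551350.t1.1 and was lost for the other 3, whose changes there were 0.85, 0.89 and 0.67 for Cre03.g159250.t1.2, Cre05.g231450.t1.1 and Cre03.g159254.t1.1. Leaving out the 8 h library of CC-4349 ended the calls of Cre12.g551350.t1.1 and Cre03.g159254.t1.1 and left 2 genes higher, and Cre03.g159254.t1.1 was also lost without the 8 h library of sta6. Without the 12 h library of either strain 7 genes were higher. At 24 h without nitrogen all 4 already stood above their 12 h values in CC-4349, Cre05.g231450.t1.1 at 308 RPKM.

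The 1 lower gene was again Cre04.g217350.t1.1. It had 5.99, 6.20, 5.50 and 5.32 RPKM in sta6 and 17.3, 16.0, 15.7 and 13.5 in CC-4349 at 8, 12, 24 and 48 h after the boost, against 31.6 and 52.3 RPKM in sta6 and 20.0 and 22.0 in CC-4349 at 8 and 12 h without nitrogen. The log2 change was -1.52 ± 0.14 (SE; limma adjusted p = 6.11e-07), made up of -2.63 in sta6 alone and -0.41 in CC-4349 alone, where it was not called. In both strains it still stood above its pre-wash values of 0.166 RPKM in sta6 and 0.211 in CC-4349.

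Set against 0 h after the wash, the later boosted libraries showed 120 of the 121 genes higher and 0 lower by limma, where 21.6% of all genes tested were higher and 12.8% lower. Under median-of-ratios scaling 117 of the 121 were higher, while the background turned from 3097 higher and 1835 lower to 2155 higher and 2558 lower. Quantile normalization gave 120 of the 121 higher, against 1993 higher and 2067 lower over all genes. The median log2 change was 3.64 for the 121 and 0.31 for all genes tested. The exception was again Cre01.g008350.t1.2, at 0.77. For 120 of the 121, all 4 late boosted libraries lay above 0 h in both strains. That was not counted over all genes tested, of which 62.5% had a log2 change above 0. At 48 h after the boost, 118 of the 121 were at least 4-fold above pre-wash in both strains, against 2.9% of all genes tested. That count shares the pre-wash baseline with the rule and is a description.

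Some genes fell under the rule's own 4-fold line in a boosted library. In sta6, 10 of the 121 stood under 4-fold over pre-wash in at least 1 of the 8 boosted libraries. In 6 of those 10 the lowest value came 0.5 h after acetate. In CC-4349 there were 4 such genes, all of them among the 10, and for 3 of the 4 the lowest value also came at 0.5 h. Genes just over the line can cross it by a small change. Cre03.g186050.t1.2, with a smallest rise of 2.05 under the rule, counted in sta6 at 1.88 on the log2 scale. No such count was made for genes outside the 121. Cre18.g747500.t1.1 was singled out after its values were seen. It had 1.67 RPKM in sta6 and 1.53 in CC-4349 at 0.5 h after the boost, against 4.09 RPKM in sta6 and 7.33 in CC-4349 at 0 h. By 4 h it was back at 3.78 RPKM in sta6 and 6.23 in CC-4349. The 0.5 h boost libraries are among the 4 with fewer gene models detected, and the part of that in these values was not tested.

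The strains were then compared in level over the 12 times that did not choose the genes. By limma with the time as a block, 2 of the 121 genes were higher and 8 lower in sta6 than in CC-4349, where 3.03% of all genes tested were higher and 3.22% lower. The median difference, sta6 minus CC-4349, was -0.21 on the log2 scale for the 121 and -0.05 for all genes tested. Of the 121, 32 had a difference above 0, a share of 26.4%, against 42.7% of all genes tested.

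Fewer of the 121 were higher in sta6 at the later times. From pre-wash to 12 h without nitrogen, between 55 and 72 of the 121, or 45.5% to 59.5%, were higher in sta6, against 46.2% to 56.7% of all genes tested. At 24 h this was 33 genes, or 27.3%, against 36.6% of all genes, and at 48 h it was 27 genes, or 22.3%, against 43.9%. At 0 h after the boost the 121 did not stand below the rest, with 43 genes, or 35.5%, against 32.8% of all genes and median differences of -0.19 for the 121 and -0.23 for all genes. At 48 h after the boost it was 13 genes, or 10.7%, against 44.0% of all genes. At 48 h after acetate the median of the 121 was 33.9 RPKM in sta6 and 52.8 in CC-4349. The genes are not independent of each other and the counts share libraries, so they are given with no test.

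**Figure D4:**
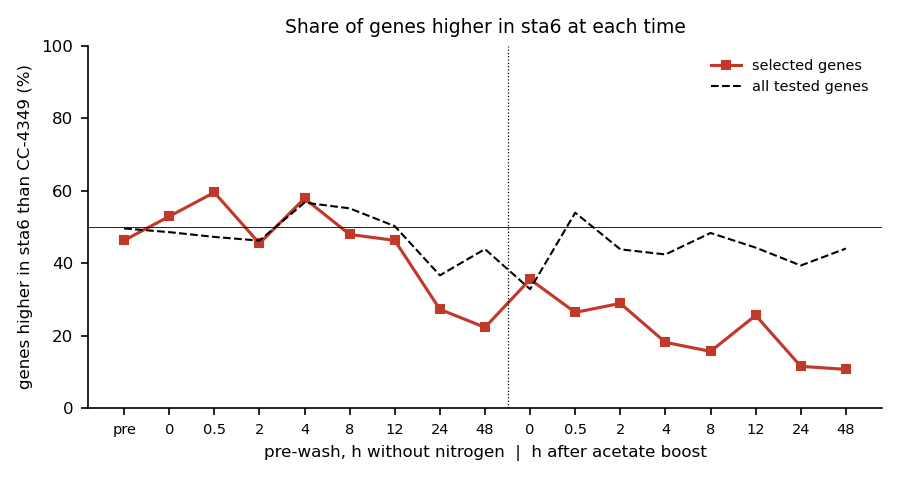
Share of genes, in percent, whose RPKM was higher in sta6 than in CC-4349 at each of the 17 times, for the 121 genes (red squares) and all 14359 genes tested (dashed line); the dotted line marks the acetate boost. Up to 12 h without nitrogen the 2 shares cross, the 121 standing higher at 0.5 h (59.5% against 47.2%) and lower at 8 h (47.9% against 55.1%), and the share of the 121 drops to 10.7% by 48 h after the boost.

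Cre24.g769150.t1.2 was the gene with the clearest excess in sta6. Over the 12 times it had a median of 141 RPKM in sta6 (11.0 to 166.7), against 23.5 RPKM in CC-4349 (0.192 to 25.1). It was higher in sta6 at 12 of 12 times, by 2.71 ± 0.08 (SE) on the log2 scale (limma adjusted p = 6.67e-12). An exact two-sided sign-flip permutation test over the 12 pairs gave p = 0.000488, the smallest it can give. The pairs are successive times with 1 library per strain each, so neither p-value measures the spread between cultures. The excess was there before nitrogen was removed, with 9.85 RPKM in sta6 and 0.114 in CC-4349 at pre-wash, and the gap was narrower at 12 h without nitrogen, with 144 RPKM in sta6 and 21.8 in CC-4349. Cre03.g209650.t1.2 had a median of 33.96 RPKM in sta6 (2.29 to 42.6), against 16.1 RPKM in CC-4349 (1.53 to 23.0). Its difference of 1.01 ± 0.14 (SE; limma adjusted p = 6.88e-05) lay at the 2-fold limit and fell under it in 15 of 34 settings, its direction being the same at 12 of 12 times.

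Cre12.g551300.t1.1 was the gene furthest below in sta6. It had a median of 89.9 RPKM in sta6 (0.195 to 165), against 936 RPKM in CC-4349 (1.96 to 1720). It was lower in sta6 at 12 of 12 times, with a difference of -2.86 ± 0.21 on the log2 scale (SE; limma adjusted p = 7.68e-08). The next model in the table, Cre12.g551350.t1.1, was also lower in sta6, with a median of 68.6 RPKM in sta6 (0.0483 to 99.97), against 238 RPKM in CC-4349 (0.192 to 387) and a difference of -1.51 ± 0.18 (SE; limma adjusted p = 1.47e-05).

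Cre13.g588271.t1.1 had a median of 30.5 RPKM in sta6 (0.137 to 40.1), against 136 RPKM in CC-4349 (0.261 to 207), a difference of -1.75 ± 0.21 (SE; limma adjusted p = 1.88e-05). Cre09.g399500.t1.1 parted late. At 8 and 12 h without nitrogen it had 14.5 and 16.0 RPKM in sta6 and 20.3 and 21.6 in CC-4349, and at 8 to 48 h after the boost it had 7.03 to 8.85 RPKM in sta6, against 31.9 to 41.8 RPKM in CC-4349. Its difference was -1.60 ± 0.30 (SE; limma adjusted p = 0.000831), lower in sta6 at 11 of 12 times, and the call was lost when the phase means were used as the pairs. The other genes lower in sta6 were Cre10.g442800.t1.2, Cre17.g714200.t1.2, Cre09.g410900.t1.1 and Cre13.g604900.t1.2, with differences of -1.25, -1.43, -1.29 and -1.20 on the log2 scale. Each of these 4 was lower in sta6 at 12 of 12 times and kept its call in all 34 settings.

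**Figure D5:**
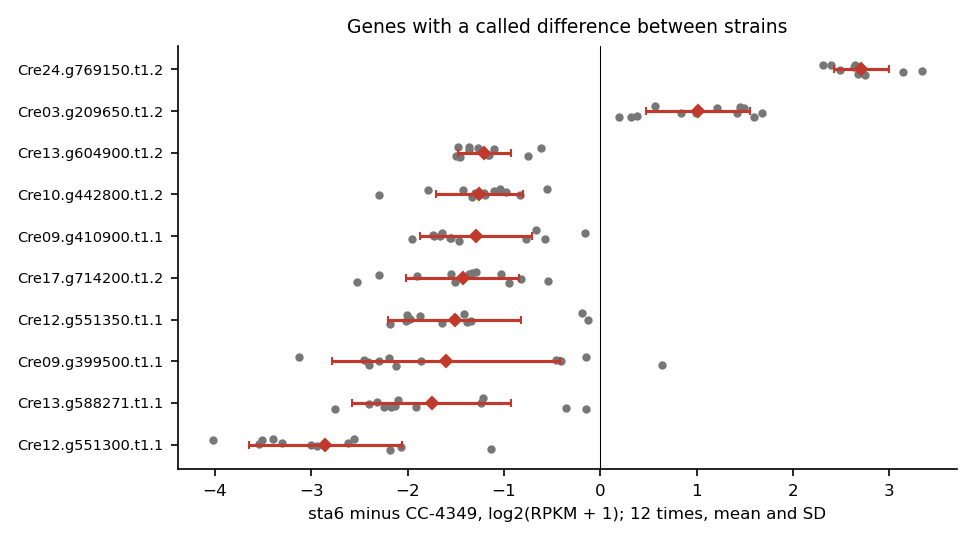
Difference between the strains, sta6 minus CC-4349 in log2(RPKM + 1), for the 10 of the 121 genes with a called difference; grey points are the 12 times, red diamonds their mean and bars the SD. On the right of 0 lie 2 genes, and 8 are left of it, with Cre12.g551300.t1.1 furthest out at -2.86.

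Whether the strains rose by different amounts was tested as the strain difference of the change from 0 h to 8 and 12 h. By limma, 6 of the 121 genes rose more in sta6 and 6 rose less, where 1.66% of all genes tested rose more in sta6 and 2.36% less. Each such difference turns on 1 library per strain at 0 h, whose spread was not measured, and leaving out 1 library at 8 or 12 h gave 2 to 5 genes that rose more in sta6. The largest was Cre02.g112500.t1.2, whose rise was smaller in sta6, with a log2 difference of -3.09 ± 0.28 (SE; limma adjusted p = 1.77e-05). It had 42.4 and 50.4 RPKM in sta6 and 28.6 and 32.8 in CC-4349 at 8 and 12 h, against 17 RPKM in sta6 and 0.415 in CC-4349 at 0 h. The strains thus differed more at 0 h than later. Cre04.g216200.t1.1 went the other way, with 49.5 and 63.5 RPKM in sta6 and 18.0 and 23.0 in CC-4349 at 8 and 12 h, against 0.128 RPKM in sta6 and 0.645 in CC-4349 at 0 h. Its rise was larger in sta6 by 1.96 ± 0.28 (SE; limma adjusted p = 0.00109).

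Many of the 121 genes lie next to each other. In the order of the table, 17 pairs of neighbouring gene models were both among the 121, involving 32 of them. Of the 242 places beside a member, 34 (14.0%) were held by another member, while members make up 0.699% of all gene models. By identifier, 21 of the 121 were on chromosome 1, which is 1.34% of its gene models. In the RefSeq reference table (assembly Chlamydomonas_reinhardtii_v5.5), to which 92 of the 121 could be matched by locus tag, 9 neighbouring pairs were found and the loci of none of these pairs overlapped. Fewer than 80% of the members matched, so no property of the matched loci was compared.

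On chromosome 1, Cre01.g008250.t1.1, Cre01.g008300.t1.2 and Cre01.g008350.t1.2 stood side by side but did not start together. At 0 h the first had 0.715 RPKM in sta6 and 0.317 in CC-4349, while the second had 29.9 RPKM in sta6 and 40.1 in CC-4349. At 12 h they had 22.3 and 106 RPKM in sta6 and 17.2 and 133 in CC-4349. Cre01.g009350.t1.1 and Cre01.g009400.t1.1 both had their highest value without nitrogen at 2 h in both strains, Cre01.g009400.t1.1 at 188 RPKM in sta6 and 161 in CC-4349, with 1.63 RPKM in sta6 and 4.56 in CC-4349 at 0.5 h. Cre01.g007400.t1.2 and Cre01.g007450.t1.2 also had their highest value without nitrogen together at 2 h, the one at 73.5 RPKM in sta6 and 76.3 in CC-4349 and the other at 17.5 RPKM in sta6 and 18.8 in CC-4349. Reads that fit more than 1 gene model, or models on opposite strands, cannot be told apart here, and the share of them in neighbouring pairs was not tested.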

How the data were processed

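RNA was sequenced in 34 libraries, 1 for each of 2 strains and 17 times. The authors deposited 1 table of RPKM values, a unit taken from the values themselves; reads were aligned with Bowtie, per the submitters' processing notes, and for its version, the genome build, annotation, counting rule and strand setting nothing is given in the sources used here. Columns were matched to samples by name. For sta6 24 h after acetate the column name ends unlike the rest. Total reads per library were recovered from the steps between low values of 4432 gene models, on a method tested on simulated data. They cover counting error only.

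Levels were analysed as log2(RPKM + 1), with a pseudocount of 1, so changes of low genes are understated. The 14359 genes averaging 1 RPKM or more across the 24 libraries that did not choose members were kept. limma 3.58.1 in R 4.3.3, with a trended empirical Bayes prior, was fitted over strain and phase groups (12 residual degrees of freedom), and for the strain level with the time point as a block (11). p-values were adjusted by Benjamini-Hochberg over all genes tested. A call needs an adjusted p below 0.05 and a 2-fold change. The fit was tested on simulated data. Python 3.11.15 with numpy 2.4.6 and pandas 2.3.3 made the tables.

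The members, groups and tests were chosen with earlier results of these data known. Genes named are the 6 most abundant and the 6 with the largest change at 8 and 12 h, up to 4 each way with the largest called difference between strains or change after the boost, those nearest to and furthest over the rule's threshold, and members that are neighbours. Others are said to have been singled out, belong to a small count or appear with the strain difference of the rise. Sequences and product names were not used here. Alternatives were other pseudocounts, filters, scalings and baselines, each strain alone, a random block for time, and leaving out each library.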

Additional observations from a re-analysis of the deposited data

Results flagged for a closer look

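One library stood far from the 3 others of its group. For Cre01.g007400.t1.2 the 12 h boost library of CC-4349 had 64.3 RPKM, against 77.8, 78.2 and 79.6 RPKM at 8, 24 and 48 h. Of 50 such groups of 4 examined, this was the 1 that passed Dixon's test, which chance alone would pass in about 1 group in 20.

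For 12 of the 121 genes the rise at 8 and 12 h differed between the strains by the limma test of the difference itself. Each difference turns on a single 0 h library per strain and takes its spread from other phases, so it carries no check of the 0 h value. In 6 the rise was larger in sta6 on the log2 scale: Cre04.g216200.t1.1 by 1.96, Cre03.g159250.t1.2 by 1.54, Cre04.g216550.t1.1 by 1.27, Cre02.g130700.t1.1 by 1.27, Cre07.g329050.t1.1 by 1.22 and Cre03.g209650.t1.2 by 1.16. In the other 6 it was smaller in sta6, with differences of -3.09 for Cre02.g112500.t1.2, -2.09 for Cre12.g504950.t1.1, -1.89 for Cre02.g133600.t1.1, -1.37 for Cre06.g260700.t1.1, -1.26 for Cre01.g058750.t1.1 and -1.04 for Cre02.g127850.t1.2. Cre02.g112500.t1.2, Cre12.g504950.t1.1, Cre02.g133600.t1.1 and Cre04.g216200.t1.1 kept the call in all 11 settings, and the other 8 lost it in 1 to 7 of them. Cre03.g159250.t1.2 was listed at 0 in sta6 at 0 h, so its difference depends on the pseudocount and ran from 0.76 to 4.04.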

How the results depend on the processing

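The rise at 8 and 12 h and the late boosted level against 0 h kept their counts within 1.5 times under every alternative run, with 117 to 120 genes higher at 8 and 12 h and 115 to 121 genes higher late after the boost when 1 library was left out. The number of members was 216 with a pseudocount of 0.1, 52 with 5 and 207 with a rise of 1.5; without the sta6 library at 2 h it was 126, and with 0 h as the baseline 121, of which 91 were shared. At 0.5 h, 40 genes were higher with a pseudocount of 5, 2 were lower in CC-4349 alone, and leaving out a library gave 69 to 84 higher and 0 to 2 lower (2 without either sta6 library). Early after the boost 0 genes were higher from 2 and 4 h alone or in sta6 alone, and 3 with 48 h and boost 0 h as the baseline; 2 were lower in sta6 alone, and 0 with quantile or median-of-ratios scaling, a pseudocount of 5 or CC-4349 alone; leaving out a library gave 0 to 1 higher and 0 to 3 lower (3 without sta6 at 4 h). Late after the boost against 8 and 12 h, 7 were higher in CC-4349 alone or with quantile normalization, 0 were lower in CC-4349 alone and 4 in sta6 alone; leaving out a library gave 2 to 7 higher, with 1 lower throughout. In the strain level, 1 was higher with a pseudocount of 5, with all 17 time points or with phase means as pairs, and leaving out a library gave 1 to 3 higher and 8 to 9 lower. For the strain difference of the rise, 2 were higher with a pseudocount of 5 and 16 lower with 0.1; leaving out a library gave 2 to 5 higher (2 without CC-4349 at 8 h or sta6 at 12 h) and 4 to 9 lower. The causes were not tested. Leaving out 1 of the 0 h, 0.5 h or boost 0 h libraries leaves the other strain alone for that comparison, and is no separate check; leaving out an 8 or 12 h library leaves 1 sample in that arm, assumed to vary like the others. Low pre-wash reads limit the size of each rise.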
